A study of Mus musculus with 12 samples.

Results

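RNA of 10 EGF family genes was followed in small intestinal organoids, the self-organizing epithelial cultures that grow from crypts. RNA levels do not measure protein, receptor activation or ERK activity, so no signaling was measured here. The members were 6 ligand genes (Areg, Ereg, Egf, Btc, Hbegf and Tgfa), 3 receptor genes (Egfr, Erbb2 and Erbb3) and Lrig1, which encodes a membrane protein that restrains the receptors. They were chosen by gene name, with earlier results of these data known, and all 10 were among the 32285 genes of the deposited matrices. Ligands of this family are made as membrane proteins, released by proteases, and bind receptor tyrosine kinases that pair with each other and feed the RAS-ERK and PI3K-AKT cascades. In the intestine, EGF is a niche factor of intestinal stem cells (ISCs) that Paneth cells supply in the crypt, and organoid medium therefore contains it. ERBB2 has no ligand of its own, ERBB3 has little kinase activity and binds neuregulins, and LRIG1 marks and limits crypt stem and progenitor cells.

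All groups were wild-type BALB/c organoids cultured for 4 days in ENR medium, which held 50 ng/mL recombinant EGF in every group, 100 ng/mL Noggin and 10% R-spondin-1 conditioned medium. The study's mice were 6 to 12 weeks old. Hashtag antibodies marked 6 groups, namely organoids alone (Ctrl), co-culture with Treg cells (Treg), Treg cells with an IFNγ-blocking antibody (Treg + aIFNγ), Treg cells with an antibody to the IL-10 receptor (Treg + aIL-10R), Treg cells with both antibodies, and recombinant IFNγ plus IL-10 without T cells (rIFNγ + rIL-10). Treg cells were allogeneic CD25high FoxP3-GFP+ C57BL/6 cells at 100000 per well, given with 30 U/mL IL-2 and 2 µL CD3/CD28 beads and kept apart from the organoid drop by tilting the plate. Antibodies were used at 10 µg/mL, rIFNγ at 0.25 ng/mL and rIL-10 at 10 ng/mL. Live EpCAM+ cells were sorted, so stroma, the other source of ligands in tissue, was outside the measurement. Single-cell RNA sequencing of 3 biological replicates, each with all 6 groups, gave 11911 cells after filtering. Unique molecular identifiers (UMIs) of all cells in a group and replicate were added up, and levels are given as CPM, the UMIs of a gene per 1000000 UMIs of that sum.

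The sums held 15087201 to 43938384 UMIs from 333 to 999 cells. A list of 6 interferon-responsive genes, which checks the hashtag labels, summed to 28.8 to 36.4 CPM in Ctrl and to 1600 to 2521 after rIFNγ + rIL-10. It stood at 113, 494 and 199 in Treg replicates 1, 2 and 3 and at 28.0 to 35.6 with aIFNγ, so replicate 2 stood apart among the Treg samples. Cells with T cell transcripts were seen in Treg + aIL-10R, where 4 cells of replicate 2 and 3 cells of replicate 3 carried at least 5 UMIs of a T cell list, against 1 cell in all other samples. Those 7 cells held 11 Areg UMIs, and leaving them out changed no call on a member. The epithelial list stood between 4694 and 5212 CPM in every sample. Fibroblast markers gave at most 6 UMIs in a sample. Library pairs shared 9 to 24 cell barcodes, at most 0.371% of a library.

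Ereg, Areg and Btc lie in this order on chromosome 5 with no other protein-coding gene between them. In GRCm38, Ereg spans chr5:91074622-91093646 and Areg chr5:91139599-91148432, both on the plus strand and 46.0 kb apart, and Btc spans chr5:91357261-91402994 on the minus strand, 209 kb beyond Areg. Epgn, the ligand gene epigen, lies just before Ereg at chr5:91027464-91035215, and the span of 376 kb from Epgn to Btc holds 7 annotated genes, 4 of them protein coding. Of the other members, Egf lies on chromosome 3, Tgfa and Lrig1 on chromosome 6, Erbb3 on chromosome 10, and Egfr and Erbb2 on chromosome 11. The start regions of Areg and Btc are shown because these neighbors gave different results below. Each runs 5′ to 3′ on the gene's own strand from 250 bases before to 50 bases after the start site in RefSeq (GRCm38.p6), and capitals mark a match to the cyclic AMP response element.
Areg, chr5:91139349-91139648, plus strand: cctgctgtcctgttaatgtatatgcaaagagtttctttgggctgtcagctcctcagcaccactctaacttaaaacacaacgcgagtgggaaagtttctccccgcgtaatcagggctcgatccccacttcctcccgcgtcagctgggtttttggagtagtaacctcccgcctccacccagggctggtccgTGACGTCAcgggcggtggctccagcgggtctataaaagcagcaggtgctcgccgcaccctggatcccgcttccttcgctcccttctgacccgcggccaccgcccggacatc
Btc, chr5:91402945-91403244, minus strand: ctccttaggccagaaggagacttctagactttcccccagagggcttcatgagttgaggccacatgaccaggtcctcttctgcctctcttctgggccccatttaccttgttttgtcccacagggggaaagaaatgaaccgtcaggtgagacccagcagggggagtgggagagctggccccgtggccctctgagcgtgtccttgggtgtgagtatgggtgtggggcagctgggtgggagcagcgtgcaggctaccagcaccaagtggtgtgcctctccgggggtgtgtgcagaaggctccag
The Areg window held the letters TGACGTCA at position -61 from the start site, a palindrome found in 1.79% of 32851 promoter windows of the same length. Neither window held a GAS element (TTCNNNGAA, 8.30% of windows), an ISRE (searched as GAAA, any 2 bases and GAAA, 3.44%) or an AP-1 site (TGANTCA, 7.81%) on either strand. A match says only that these letters are present, and windows were not listed for Ereg or Erbb3. The position and start region of Hbegf are not given here.

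Amphiregulin (Areg), a ligand of EGFR that is made in injured and inflamed epithelia, rose after rIFNγ + rIL-10. It stood at 34.4, 39.2 and 24.5 CPM in Ctrl replicates 1, 2 and 3 and at 211, 145 and 120 after the cytokines. All 3 cytokine samples lay above all 3 Ctrl samples, with means of 158 ± 46.9 against 32.7 ± 7.49 (SD, n = 3). The fold change was 5.05, or 2.34 on the log2 scale (SE 0.31, 95% interval 1.67 to 3.00), with an adjusted p of 0.000114 by edgeR's quasi-likelihood test with Benjamini-Hochberg adjustment over all genes and replicate as a block. Every adjusted p below comes from that test unless another is named. These p-values measure the spread that is left within the 3 replicates after the block, estimated over all 6 groups together.

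Epiregulin (Ereg), a ligand of EGFR and ERBB4, also rose but was rare. It stood at 0.51, 0.05 and 0.51 CPM in Ctrl, which rests on 25 UMIs in all, and at 2.49, 0.97 and 1.59 after the cytokines, which rests on 126 UMIs. The groups did not overlap, and the fold change was 5.12, or 2.36 on the log2 scale (SE 0.52, adjusted p = 0.00339). The lowest Ctrl sample held 2 UMIs and the lowest cytokine sample 24.

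HB-EGF (Hbegf), a ligand of EGFR and ERBB4 that binds heparan sulfate and acts in wound closure, fell. It stood at 51.2, 31.1 and 41.8 CPM in Ctrl and at 13.7, 25.3 and 23.8 after the cytokines. All 3 cytokine samples lay below the lowest Ctrl sample, and the level fell by 46.8% (log2 fold change -0.91, SE 0.22, adjusted p = 0.00649). Without replicate 3 the fall of Hbegf did not pass the test (adjusted p = 0.0727). It was widest in replicate 1, where the cytokine level was 0.267 of Ctrl, against 0.816 in replicate 2.

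Egfr, the receptor for most of these ligands, fell by 25.5% (log2 fold change -0.42, SE 0.11, adjusted p = 0.0097). It stood at 37.4, 30.4 and 20.8 CPM in Ctrl and at 21.3, 25.6 and 17.4 after the cytokines. The groups overlapped, and the fall was seen within each of the 3 replicates. Without the replicate block the adjusted p was 0.256, and without replicate 3 it was 0.054.

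In all, 4 of 10 members passed in rIFNγ + rIL-10 against Ctrl, 2 higher and 2 lower, where 35.9% of all 15002 genes tested passed, so this share was near that of all genes. The 10 members had a median log2 change of 0.04, and all genes had a median of -0.01. The remaining 6 members did not pass. Betacellulin (Btc), a ligand of EGFR and ERBB4, stood at 11.5 to 14.7 CPM in Ctrl and at 10.1 to 15.1 after the cytokines (log2 difference -0.13, 95% interval -0.45 to 0.19). Transforming growth factor alpha (Tgfa), an EGFR ligand of the epithelium itself, stood at 6.34 to 9.25 and at 7.36 to 9.53 (0.02, interval -0.16 to 0.19). Egf itself rested on 49 to 80 UMIs in a whole group, and its log2 difference of 0.14 had an interval from -0.66 to 0.95.

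The other receptors and Lrig1 moved by less. Erbb2, the shared partner receptor, stood at 13.8 ± 1.30 CPM in Ctrl and at 14.7 ± 1.43 after the cytokines (SD, n = 3), with overlapping samples and a log2 difference of 0.10 (interval -0.04 to 0.25). Erbb3 stood at 40.1 to 56.2 and at 44.2 to 54.4, with a difference of 0.06 (interval -0.05 to 0.18). For both receptors, changes of more than 1.5-fold lay outside the interval. Lrig1 stood at 87.3, 75.4 and 57.7 in Ctrl and at 65.9, 70.4 and 54.2 after the cytokines, lower in each replicate, with a log2 difference of -0.18 that did not pass (adjusted p = 0.105). It passed when the 5 libraries were fitted separately (adjusted p = 0.0218), a fit that counts 2 libraries of 1 replicate as separate samples.

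**Figure D1:**
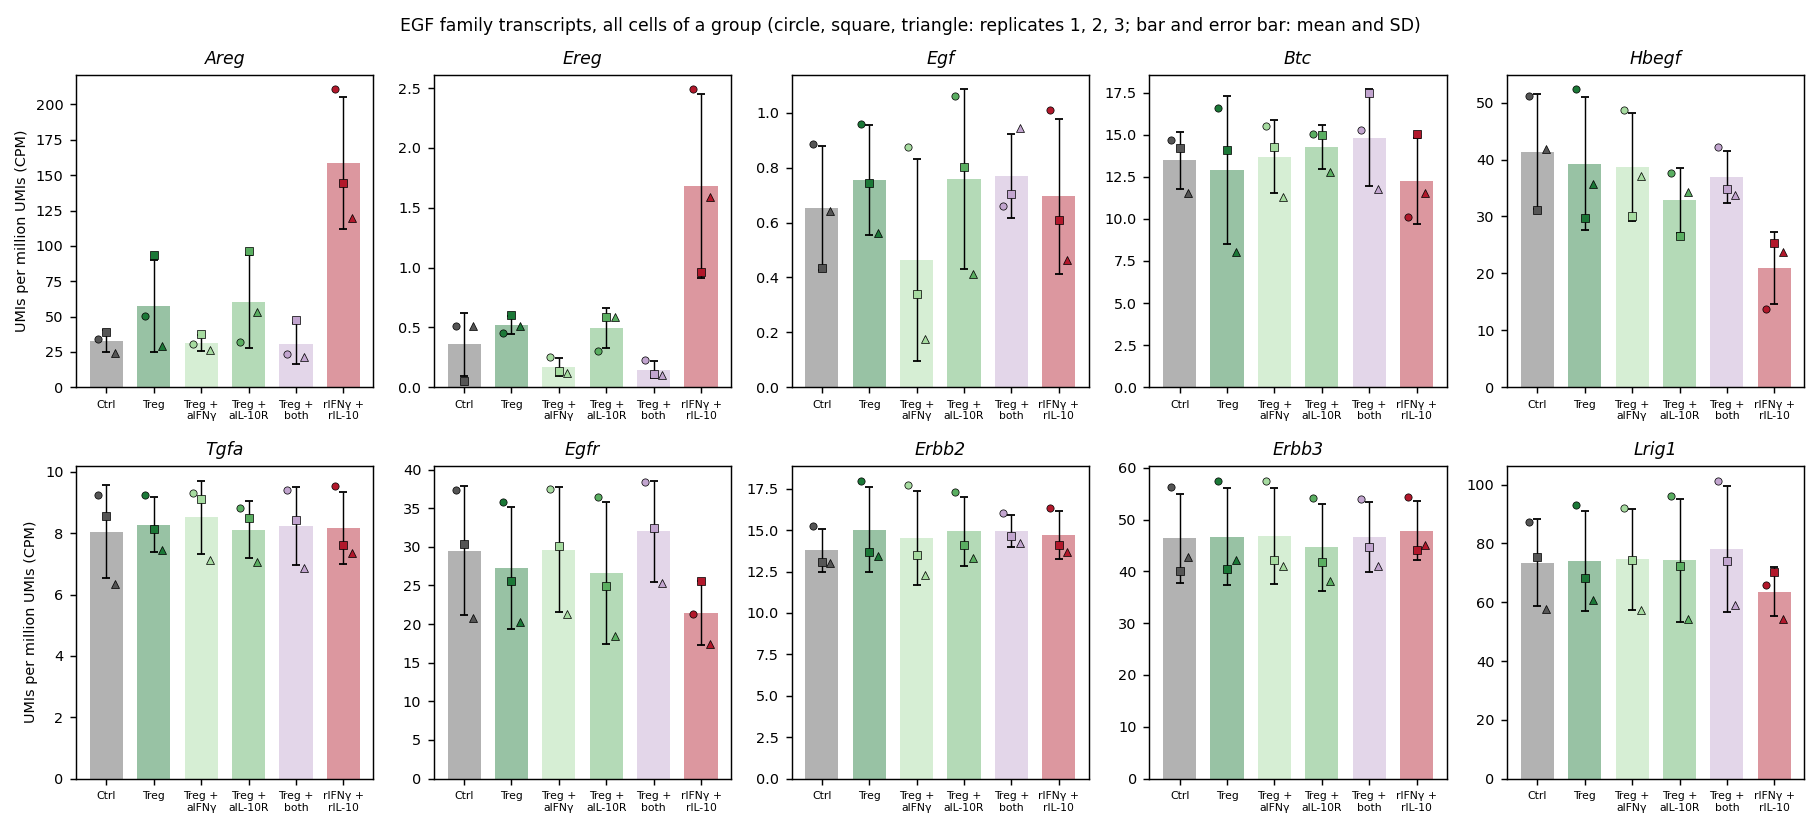
Level of each of the 10 genes in all cells of a group, in CPM on linear axes that start at 0, for the 6 groups on the x axis (both: aIFNγ and aIL-10R). Points are the 3 replicates, bars the mean and error bars the SD. Areg and Ereg stand highest and Hbegf lowest in rIFNγ + rIL-10, and in the Treg and Treg + aIL-10R groups the Areg samples are spread widely, from 29.5 to 96.5.

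The Treg groups addressed whether T cell derived cytokines act like the recombinant ones. Areg stood at 50.2, 93.2 and 29.5 CPM with Treg cells, higher than Ctrl in each of the 3 replicates, but the groups overlapped. The log2 difference was 0.74 (SE 0.31) and did not pass after adjustment (adjusted p = 0.648), and without replicate 2 it was 0.43. The sample with the highest Areg, replicate 2, was also the one with the highest interferon list among the Treg samples, a relation that was not tested. Ereg stood at 0.45, 0.60 and 0.51, a log2 difference of 0.79 (adjusted p = 0.842) that turned to -0.09 without replicate 2. None of the 10 members passed in Treg against Ctrl, where 0.153% of all genes passed. Areg was the 1 member with an unadjusted p under 0.05, where 6.90% of all genes were under it, and DESeq2 called 0.

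With Treg cells and aIL-10R, Areg stood at 32.1, 96.5 and 53.1 CPM. Replicates 2 and 3 lay above all Ctrl samples and replicate 1 lay among them, with a log2 difference of 0.83 from Ctrl (adjusted p = 0.377). Without replicate 1 the difference was 1.22 and passed (adjusted p = 0.0374). Replicates 2 and 3 were also the samples with T cell transcripts and with the interferon list at 703 and 520 CPM against 167 in replicate 1, and their part in the result was not tested beyond leaving out the 7 cells. None of the 10 members passed here over all replicates (0.453% of all genes did), with 1 at an unadjusted p under 0.05 (9.27% of all genes) and 0 by DESeq2. Against Treg, aIL-10R gave 0 members at adjusted p (0.0% of all genes), 0 at unadjusted p under 0.05 (1.95% of all genes) and 0 by DESeq2.

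With aIFNγ, Areg was lower than with Treg cells alone in each replicate, at 30.5, 37.5 and 26.5 CPM, which is the range of Ctrl. With both antibodies it was again lower in each replicate, at 23.8, 47.4 and 21.5. The log2 differences from Treg were -0.81 (adjusted p = 0.528) and -0.89 (adjusted p = 0.363), and the groups overlapped. Ereg stood at 0.12 to 0.25 with aIFNγ and at 0.10 to 0.23 with both antibodies, without overlap with the Treg samples, at 17 and 14 UMIs against 51. Its log2 differences of -1.63 and -1.83 did not pass (adjusted p = 0.505 and 0.348). None of the 10 members passed against Treg, with 0.193% of all genes passing for aIFNγ and 0.207% for both antibodies. At unadjusted p under 0.05 there were 2 members for aIFNγ (Ereg and Areg) and 3 for both antibodies (Ereg, Areg and Egfr), where 8.17% and 9.55% of all genes were under it, and DESeq2 called 0 in each. Against Ctrl, these 2 groups gave 0 members at adjusted p, at unadjusted p under 0.05 and by DESeq2, and 0.0% of all genes passed in each. At unadjusted p under 0.05 there were 1.79% of all genes for aIFNγ and 3.02% for both antibodies.

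The recombinant cytokines were also set against Treg co-culture. Areg was 1.60 higher (adjusted p = 0.00313) and Ereg 1.57 higher (adjusted p = 0.0317) on the log2 scale, and Hbegf was lower, by -0.84 (adjusted p = 0.0188). These 3 of 10 members passed, where 20.5% of all genes did. Each of the 3 lost its call in the fit without the replicate block (adjusted p = 0.0785 for Areg, 0.109 for Ereg and 0.074 for Hbegf) and without replicate 3 (0.108, 0.184 and 0.141). Ereg and Hbegf also lost it without replicate 1 (0.309 and 0.0837).

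Summed over all cells, fewer cells of a type and less RNA per cell cannot be told apart, so the members were also followed within cell classes. Control cells were clustered without the 10 members, clusters were named from marker lists, and all cells were assigned to them. Some clusters stayed unnamed. They held 1331 of the 11911 cells, 204 of 1774 in Ctrl and 212 of 1809 after the cytokines, and entered no class. ISC-like, transit-amplifying (TA)-like and enterocyte-like cells were numerous enough to test. In Ctrl they made up 25.1%, 41.6% and 18.0% of cells, and after the cytokines 12.8%, 36.2% and 28.3%. The enterocyte-like share after the cytokines was 39.9%, 23.2% and 22.5% in replicates 1, 2 and 3. In Ctrl, enterocyte-like cells numbered 112 of 596, 135 of 833 and 72 of 345 in these replicates. Replicate 3 moved little, to 75 of 333 after the cytokines. Goblet/Paneth-like cells went from 29 of 1774 cells to 122 of 1809 and endocrine-like cells from 27 to 66. By replicate, endocrine-like cells numbered 10, 11 and 6 in Ctrl and 31, 27 and 8 after the cytokines. The enteroendocrine list went from 271, 252 and 216 CPM to 1186, 442 and 52.3, so it fell in replicate 3. The Paneth list stood at 924 to 1720 CPM in Ctrl and at 3818 to 8732 after the cytokines, and the goblet list at 1278 to 2333 and at 3505 to 4696. The stem cell list stood at 1624 to 1845 in Ctrl and at 596 to 1015 after the cytokines, with 8 of 8 genes lower. Classes were assigned from Ctrl profiles, so fewer ISC-like cells and less stem cell RNA per cell cannot be told apart in these shares. In the paper, clusters that emerged mainly under these cytokines also appeared with Treg cells. Some of them held ISCs, TA cells and enterocyte progenitors, and another held enterocytes and enterocyte progenitors.

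The levels within Ctrl differed by class and are a description only. Areg stood at 129, 145 and 82.6 CPM in enterocyte-like cells, at 21.6, 28.1 and 11.7 in TA-like cells and at 9.92, 10.4 and 7.48 in ISC-like cells, so the classes did not overlap. Enterocyte-like cells held 52.9% of Areg UMIs and 14.7% of all UMIs. Hbegf stood at 117, 50.3 and 86.3 in enterocyte-like cells and at 23.1 to 33.8 in ISC-like cells. The receptor and its inhibitor had the opposite order. Egfr stood at 35.7 to 45.2 in ISC-like cells, 20.9 to 37.6 in TA-like cells and 9.01 to 21.3 in enterocyte-like cells, with overlap between neighboring classes. Lrig1 stood at 89.8 to 126 in ISC-like cells, 57.3 to 74.5 in TA-like cells and 29.3 to 52.2 in enterocyte-like cells, without overlap.

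Erbb3 stood at 55.9 to 100 CPM in enterocyte-like cells and at 38.2 to 54.6 in ISC-like cells, and Erbb2 at 18.4 to 20.9 and at 11.4 to 14.4. Btc and Tgfa did not separate the classes, with Btc at 16.0 ± 3.26 in ISC-like cells and 15.2 ± 12.1 in enterocyte-like cells, and Tgfa at 7.50 ± 2.98 and 8.88 ± 1.47 (SD, n = 3). Egf was rare throughout, with 23 UMIs in ISC-like, 17 in TA-like and 6 in enterocyte-like Ctrl cells, and 5 among only 29 goblet/Paneth-like cells. Endocrine-like and tuft-like Ctrl cells numbered 27 and 12, too few for a test. Egfr and Erbb3 were detected in the endocrine-like cells, at 53.4 ± 36.8 and 87.8 ± 16.0 (SD, n = 3). In tuft-like cells 20 of 21 Areg UMIs came from replicate 1, which held 1 such cell.

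Areg rose after rIFNγ + rIL-10 in each of the 3 classes. In ISC-like cells it reached 120, 38.6 and 50.4 CPM (log2 fold change 2.86, SE 0.38, adjusted p = 9.36e-06). TA-like cells reached 122, 80.1 and 55.0 (2.13, SE 0.27, adjusted p = 1.2e-05), and enterocyte-like cells 391, 460 and 409 (1.85, SE 0.23, adjusted p = 1.3e-05). In every class all cytokine samples lay above all Ctrl samples. The rise was not shown to differ between enterocyte-like and ISC-like cells (difference -0.99, SE 0.53, adjusted p = 0.222), though it did pass without replicate 2 (-1.44, adjusted p = 0.0284). The list of enterocyte genes in ISC-like cells stood at 1.73% to 3.73% of its enterocyte-like level in Ctrl and cytokine samples. By replicate, Areg there stood at 7.71%, 7.15% and 9.07% in Ctrl and at 30.7%, 8.40% and 12.3% after the cytokines. In TA-like cells the list stood at 4.95% to 9.97%. Areg stood there at 16.8%, 19.4% and 14.2% in Ctrl and at 31.2%, 17.4% and 13.4% after the cytokines. The part of free RNA or of cells assigned to the wrong class in these levels was not tested.

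Ereg was found mostly in enterocyte-like cells after the cytokines. There it went from 3 UMIs in Ctrl to 92, or from 0.22, 0 and 0.75 to 6.18, 2.66 and 4.22 CPM, without overlap (log2 fold change 4.01, SE 0.72, adjusted p = 0.000493). Only the 3 cytokine samples and 1 Treg sample held 10 or more UMIs in this class, so Ereg passed the filter on low counts there through the group where it was high. In ISC-like cells it went from 8 UMIs to 0 and did not pass that filter, and TA-like cells held 12 and 27. With that few counts, no difference in response between enterocyte-like and ISC-like cells is read for Ereg.

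Hbegf fell in enterocyte-like cells, to 10.6, 32.8 and 38.0 CPM (log2 fold change -1.64, SE 0.33, adjusted p = 0.00115). It fell in TA-like cells, from 29.5 to 44.5 in Ctrl to 15.8 to 26.7 (-0.65, adjusted p = 0.00612), and in ISC-like cells it stood at 24.1, 24.3 and 28.3 (-0.18, adjusted p = 0.537). The enterocyte-like response differed from the ISC-like one by -1.51 (adjusted p = 0.0106). The same held for Egfr, with log2 changes of -0.81 in enterocyte-like (adjusted p = 0.0111), -0.29 in TA-like (adjusted p = 0.0175) and 0.06 in ISC-like cells (adjusted p = 0.764) and a difference of -0.85 (adjusted p = 0.00733). In enterocyte-like cells Egfr stood at 21.3, 14.7 and 9.01 in Ctrl and at 7.33, 12.8 and 5.27 after the cytokines, so the groups overlapped. In ISC-like cells it stood at 45.2, 40.7 and 35.7 and at 48.2, 41.3 and 35.7.

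Those differences depended on the fit and on single replicates. In the fit without the block the adjusted p was 0.0593 for the Hbegf difference and 0.247 for Egfr. Without replicate 1 these were 0.0721 and 0.573, and without replicate 3 they were 0.136 and 0.0569. The falls in Egfr in enterocyte-like cells lost the call in the same settings (adjusted p = 0.124 without the block, 0.411 without replicate 1 and 0.0671 without replicate 3). In TA-like cells the Hbegf fall lost it without the block (0.0581) and without replicate 3 (0.105), and the Egfr fall without the block (0.5) and without replicate 1 (0.228).

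By count, the cytokines changed 1 of 8 members tested in ISC-like cells (18.0% of all genes), 3 of 9 in TA-like cells (28.9%) and 4 of 9 in enterocyte-like cells (28.6%). The count of 4 of 9 includes Ereg, which entered the test there only through the group where it was high, so it is not read as a higher share. The test of the difference between enterocyte-like and ISC-like cells called 3 members, where it called 16.1% of all genes. They were Hbegf, Egfr and Ereg, of which Ereg rests on the few counts given above. With Treg cells, 0 members passed in ISC-like (0.257% of all genes), TA-like (0.395%) or enterocyte-like cells (0.0536%), and 0 in the difference between classes (0.0%). DESeq2 called 0 in each class. At an unadjusted p under 0.05 there was 1 member in each of these 4 tests, Areg in ISC-like and TA-like cells and Ereg in enterocyte-like cells and in the difference. Of all genes, 6.96% were under it in ISC-like cells, 9.34% in TA-like cells, 5.90% in enterocyte-like cells and 4.80% in the difference. Areg with Treg cells stood at 20.6, 35.1 and 5.39 CPM in ISC-like cells (log2 difference 1.18, SE 0.40, adjusted p = 0.424), at 39.3, 60.5 and 18.5 in TA-like cells (0.92, adjusted p = 0.215) and at 131, 274 and 101 in enterocyte-like cells (0.42, adjusted p = 0.87).

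**Figure D2:**
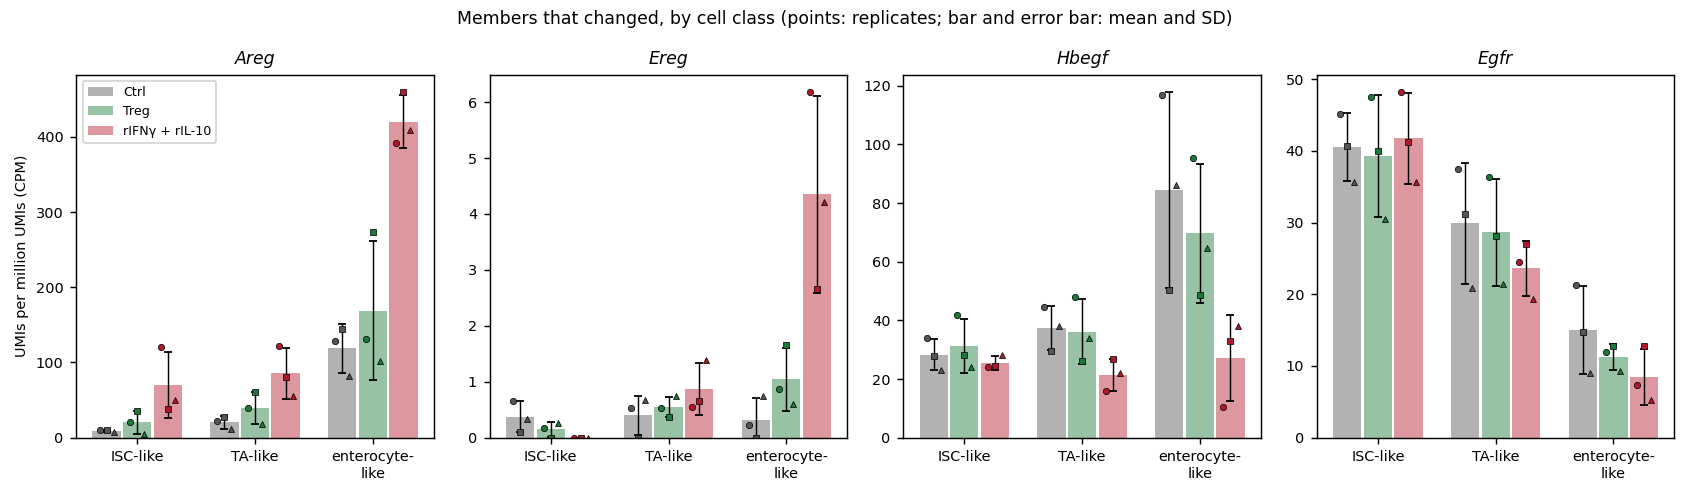
Areg, Ereg, Hbegf and Egfr in ISC-like, TA-like and enterocyte-like cells of Ctrl, Treg and rIFNγ + rIL-10, in CPM on linear axes from 0. Points are the 3 replicates, bars the mean and error bars the SD. Areg rises in all 3 classes after the cytokines and reaches 391 to 460 in enterocyte-like cells, where Hbegf falls to 10.6 to 38.0.

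The changes were set beside the shift in cell classes. Each replicate was given the cluster makeup of its Ctrl sample, an alternative chosen after seeing the data. It rests on the same assignment from Ctrl profiles, so it cannot separate fewer cells of a class from less marker RNA per cell. The ratio of cytokine to Ctrl levels for Areg was 6.12, 3.69 and 4.89 as measured and 4.48, 2.80 and 4.71 at the Ctrl makeup. For Ereg, at few UMIs, it was 4.88, 17.7 and 3.11 and became 2.16, 12.7 and 3.02. For Hbegf it was 0.267, 0.816 and 0.569 and became 0.370, 0.816 and 0.622. For Egfr it was 0.571, 0.843 and 0.837 and became 0.770, 0.912 and 0.954, closer to 1 in each replicate. For Lrig1 it was 0.756, 0.933 and 0.940 and became 1.05, 1.01 and 0.996. The enterocyte-like class joined 2 clusters, and the list that scored highest was that of enterocytes in the first and that of enterocyte progenitors in the second. In the first and the second, mean Areg stood at 128 and 105 in Ctrl and at 509 and 241 after the cytokines, and mean Hbegf at 86.2 and 80.6 and at 27.5 and 27.4.

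**Figure D3:**
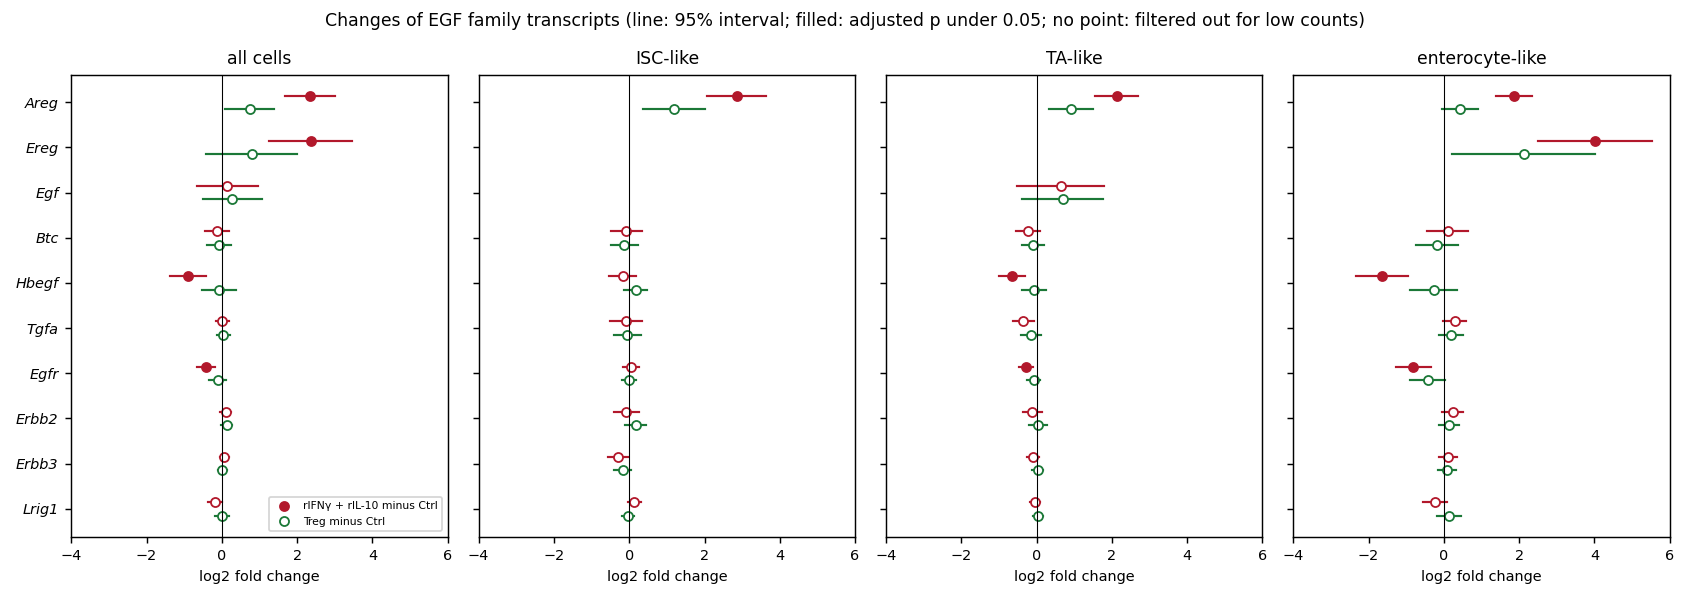
Log2 fold change of each gene (x axis) against Ctrl for rIFNγ + rIL-10 (red) and Treg (green), in all cells and in 3 cell classes, with 95% intervals as lines. Filled points passed at an adjusted p under 0.05, open points did not, and genes with too few counts have no point. Areg lies right of 0 with filled points in every panel for the cytokines, and no Treg point is filled.

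The rest of the pathway was described from lists of its parts. In all cells, 35.9% of all 15002 genes tested passed after the cytokines, the share to set beside each count of these lists. The neuregulins, ligands of ERBB4 and, for some of them, of ERBB3, differed in the class that held them in Ctrl. Nrg1 gave 746 UMIs in endocrine-like cells, 18 in TA-like, 16 in ISC-like and 14 in enterocyte-like cells. Nrg3 gave 67 UMIs in endocrine-like and 11 in TA-like cells. By replicate the 67 were 47, 20 and 0. Endocrine-like cells held 1 Nrg3 UMI with Treg cells and 0 after the cytokines. Nrg4 gave 121 UMIs in enterocyte-like, 48 in TA-like, 21 in ISC-like and 0 in endocrine-like cells. Epgn, Nrg2 and Erbb4 did not pass the filter on low counts, and of the 3 that did in all cells, Nrg4 fell after the cytokines from 2.49 ± 0.968 to 1.61 ± 0.644 CPM (SD, n = 3, log2 fold change -0.69, adjusted p = 0.0327). In TA-like cells Nrg1 and Nrg3 passed as higher (log2 fold change 3.53 and 2.21, SE 1.21 and 0.79, adjusted p = 0.0349 and 0.0419). The Nrg1 UMIs there were 3, 11 and 4 in Ctrl and 1, 236 and 5 after the cytokines. Replicate 2 held nearly all of them, so no rise is read for Nrg1. The Nrg3 UMIs were 6, 4 and 1 in Ctrl and 13, 29 and 6 after the cytokines, few in either group. Of 5 genes for shedding, which frees ligands from the membrane, Adam17, the main protease for amphiregulin, rose by 0.18 (adjusted p = 0.0238) on the log2 scale. Adam10, which cleaves EGF and betacellulin, changed by -0.16 (adjusted p = 0.0225), and the rhomboid protease gene Rhbdl2 by -0.49 (adjusted p = 0.0288).

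Of 16 genes of the RAS-ERK cascade, 2 rose and 1 fell, where 35.9% of all genes passed, and their median log2 change was 0.02. Map2k1 and Map2k2, which encode the kinases MEK1 and MEK2, rose by 0.21 and 0.20 (adjusted p = 0.02 and 0.0361), and the docking protein gene Gab1 changed by -0.57 (adjusted p = 0.0089). Of 8 genes tested of the PI3K-AKT arm 1 rose and 1 fell, Pik3cb by 0.41 and Pik3r1 by -0.37 (adjusted p = 0.00258 and 0.000278), which encode a catalytic and a regulatory subunit of PI3K.

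Of 16 brakes on the receptor and the cascade, 6 fell and 0 rose. Of all genes 35.9% passed, so the share of brakes that passed was near that of all genes. The other 10 did not pass, 5 of them with log2 differences above 0 (0.05 to 0.30, highest for Dusp6), and the median over the 16 was -0.06. Errfi1, whose product binds and inhibits the EGF receptor kinase, went from 60.4 ± 13.2 to 32.3 ± 3.8 CPM (log2 fold change -0.86, adjusted p = 0.000308). Spry2 and Spry1, Sprouty inhibitors of RAS-ERK signaling, changed by -0.72 and -0.96 (adjusted p = 0.000352 and 0.00168), and Lrig3, a relative of Lrig1, by -0.54 (adjusted p = 0.00195). In enterocyte-like cells Errfi1 changed by -1.45 (adjusted p = 7.95e-05), and there 1 brake, Socs4, rose (0.48, adjusted p = 0.00516).

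Of 10 transcripts that respond to ERK activity, 5 fell and 1 rose, where 35.9% of all genes passed, and the median log2 change was -0.61. Fos, Egr1 and Ier2 are immediate early genes. They changed by -1.70, -1.16 and -0.70 (adjusted p = 0.000422, 0.000799 and 0.000113), whereas the cyclin gene Ccnd1 rose from 104 ± 16.0 to 221 ± 19.3 CPM (log2 fold change 1.10, adjusted p = 4.37e-06). Fos, Egr1 and Ier2 also belong to a list of transcripts induced by tissue dissociation, which summed to 847 to 1021 CPM in Ctrl and to 345 to 585 after the cytokines, with 6 of 10 tested genes lower. The rest of the 5 ERK-responsive transcripts that fell are not on that list. The part of dissociation in the falls of Fos, Egr1, Ier2 and Hbegf was not tested. Among all 15002 genes tested, 2760 were higher and 2630 lower. With Treg cells against Ctrl, 0 genes of any of these lists passed.

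**Figure D4:**
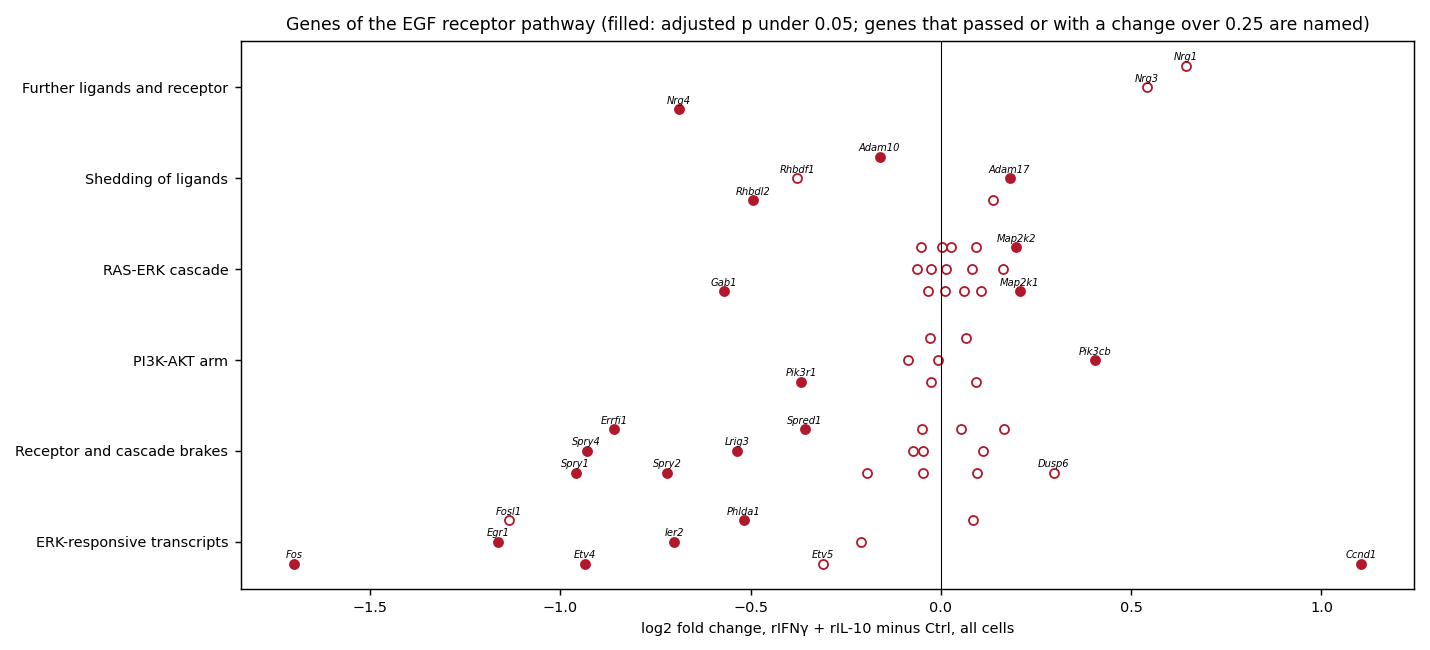
Log2 fold change in rIFNγ + rIL-10 against Ctrl (x axis, all cells) for genes of 6 lists, 1 list in each horizontal band, where height within a band has no meaning. Filled points passed at an adjusted p under 0.05. The 6 filled points among the brakes all lie left of 0, and Ccnd1 stands apart at 1.10 from the other ERK-responsive transcripts. Of all genes tested, 35.9% passed in this comparison.

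The neighbors of Areg and Ereg on chromosome 5 differed in the same comparison. Btc, whose start region is printed above beside that of Areg, rested on 1135 UMIs in Ctrl and 1027 after the cytokines. Epgn gave 9 and 2 UMIs. Gm19619, a long noncoding RNA gene between Areg and Btc, went from 6 to 27 UMIs (log2 fold change 2.14, SE 0.62, adjusted p = 0.0161). Gm19610, an antisense gene whose annotation overlaps the start of Ereg, gave 0 and 3 UMIs.

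Likeness of pattern was measured as Pearson's r over the means of 6 classes in 6 groups, 36 points that share cells and libraries, among 10198 genes. The genes most like Areg were Aqp11 (r = 0.870), Maoa (r = 0.855) and Ndufb10 (r = 0.854). Those most like Hbegf were Camk1d (r = 0.884), Mgat4a (r = 0.866) and Ano6 (r = 0.866). Those most like Egfr were Zdhhc2 (r = 0.886), Pcgf6 (r = 0.881) and Rangrf (r = 0.850), and those most like Tgfa were Tbc1d20 (r = 0.927), Gcdh (r = 0.916) and Hexdc (r = 0.866). Without the sparse tuft-like and endocrine-like means, which leaves 24 points, r fell to 0.767, 0.538 and 0.708 for these 3 neighbors of Tgfa and was 0.868 to 0.955 for those of the other 3 members. These values are a description.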

How the data were processed

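Per the labels, TotalSeq-B hashed organoid cells were pooled in 6 libraries (10x 3′ v3.1), 2 for each biological replicate. The authors deposited raw UMI counts per gene and barcode, made with Cell Ranger 7.0.0 on GRCm38 (mm10) and combined over sequencing runs, and analyzed them with Seurat 4.0.5. The groups came from the deposited hashtag key. The sixth library, which the authors excluded, was left out of all fits.

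Hashtags were called per library with HTODemux (Seurat 5.3.0, CLR, quantile 0.99), giving 24320 singlets of 35985 barcodes. Cells outside 10000 to 90000 UMIs or 3000 to 10000 genes, or above 8.5% mitochondrial UMIs, were dropped. Hashtag doublets were removed, and a simulated-doublet score separated them only weakly (AUC 0.568 to 0.655), so it served as an alternative. Control cells were clustered with scanpy 1.11.5 (3000 variable genes, 30 components, resolution 1) without the members, and cells of all groups were assigned to clusters over 595 marker genes, which returned 84.2% of control cells to the class of their cluster. A cluster took the name of the marker list with the highest score (median log2 fold, at least 0.4), unless its 10 leading genes held more markers of another list. By that second step, 1 cluster with enterocyte progenitors as its highest list was put with the enterocyte-like cells and 1 with stem cells as its highest list with the TA-like cells. No class of enterocyte progenitors therefore remained, and goblet/Paneth-like cells numbered under 10 in some samples, so their planned tests were not run. Clusters scoring under 0.4, and a secretory sub-cluster led by a list of non-secretory cells, stayed unnamed.

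UMIs were summed per group and replicate and tested with edgeR 4.0.16 (TMM, filterByExpr, quasi-likelihood test, Benjamini-Hochberg over all genes tested, threshold 0.05), all 6 groups and the replicate block in 1 fit. The study tested cells with a mixed model and a library term, and sums were used here instead. The 6 groups of a replicate share libraries, and samples of the same replicate deviated together from their group means (mean correlation 0.36, lowest 0.104). The block was therefore kept. The mean of -0.178 for other pairs is largely set by centering on group means and is no separate support. DESeq2 1.42.0, other filters, scalings and left-out replicates were alternatives, and the script was tested on simulated data. The sums held 15087201 to 43938384 UMIs. Intervals of the fits include the spread between replicates, and intervals of single libraries cover counting error only. The members are named throughout. Other genes named came from pathway lists, at most 4 in each list and class by lowest adjusted p, and from the 3 nearest patterns of 4 members. The noncoding neighbors on chromosome 5 lie outside that rule and were chosen for their position. The members and the lists were chosen with earlier results of these data known.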

Additional observations from a re-analysis of the deposited data

Results flagged for a closer look

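The response to rIFNγ + rIL-10 differed between enterocyte-like and ISC-like cells for Egfr (adjusted p = 0.00733) and Hbegf (adjusted p = 0.0106) by the test of the difference (edgeR's quasi-likelihood test). The same test gave an adjusted p of 0.00909 for Ereg, which is not read as a difference, since the ISC-like samples held 8 UMIs in Ctrl and 0 after the cytokines and Ereg did not pass the filter on low counts in that class. All 3 lost the call without replicate 1 and without replicate 3.

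The library that the study excluded was not used in any comparison, and it held signals above its own Ctrl cells. The paper left it out for low counts and unclear hashtag labels, so its group labels are less sure. It gave 3285 hashtag doublets and 3515 singlets, against 379 to 1058 doublets in the other libraries. It is the other library of replicate 3 and no further replicate. With 1 library there is no test, and the exact 95% Poisson intervals cover counting error only. Its cells were shallower, and they were kept from 2000 UMIs and 1000 genes upward. Areg stood at 33.1 CPM in Ctrl (26.9 to 40.4), 32.8 in Treg, which is no higher than Ctrl, 71.6 in Treg + aIL-10R (60.4 to 84.4) and 250.4 in rIFNγ + rIL-10 (225.9 to 276.8). Ereg stood at 0.34 in Ctrl, from 1 UMI, and at 9.18 in rIFNγ + rIL-10 (5.02 to 15.4), from 14 UMIs. Hbegf stood at 52.7 and 36.0. Its groups had 148 to 326 cells and 1525776 to 2959200 UMIs.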

How the results depend on the processing

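Of 14 changes of members called after rIFNγ + rIL-10 against Ctrl (all cells and classes, differences between classes included, except that of Ereg, which rests on too few counts), each kept its direction under every alternative run on it. The 14 include Ereg in enterocyte-like cells, which passed the filter on low counts through the group where it was high. The calls held with DESeq2, without TMM factors, without the filter, without simulated doublets, with the lower UMI floor, with 5 libraries and with 25 genes per cluster, wherever these were run. Without the replicate block 8 of 14 kept the call, and without replicates 1, 2 and 3 it was 10, 14 and 8, which have fewer samples.

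Counts of members called changed as follows. In all cells, rIFNγ + rIL-10 against Ctrl (4) gave 2 to 4 with 1 replicate left out. Against Treg (3) it gave 0 without the replicate block, 5 with 5 libraries and 0 to 4 with 1 replicate left out, and Treg + aIL-10R against Ctrl (0) gave 0 to 1. In ISC-like cells the cytokines (1) gave 2 without the filter and 1 to 2 with 1 replicate left out. In TA-like cells (3) they gave 1 without the replicate block. The differences between classes (3, Ereg included) gave 1, Ereg, without the replicate block and 0 to 5 with 1 replicate left out. Without the filter on low counts, Treg against Ctrl gave 1 member, Areg, in each class in place of 0, and the SE of its log2 difference in ISC-like cells was then 0.14 in place of 0.40. The block changed no other member call than those given here and in the report.

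Signs turned only for differences that did not pass. With 1 replicate left out, the log2 difference of rIFNγ + rIL-10 from Ctrl ran from -0.013 (without replicate 2) to 0.31 for Egf, from -0.25 to 0.059 (without replicate 1) for Btc, and from -0.066 (without replicate 3) over -0.0097 (without replicate 1) to 0.14 for Tgfa. For Ereg, the difference from Ctrl ran from -0.089 to 1.46 in Treg and from -0.30 to 1.5 in Treg + aIL-10R, both lowest without replicate 2. Egfr in ISC-like cells gave -0.035 with 25 genes per cluster. At the Ctrl makeup, the mean ratio of cytokine to Ctrl levels moved by more than 1 SD for Erbb2 (0.999), Erbb3 (0.928) and Lrig1 (1.02).

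Counts over all genes moved more. In all cells the cytokines against Ctrl gave 5390 genes, 1332 without the block, 2546 without replicate 1 and 3095 without replicate 3. Against Treg they gave 3077, 438 without the block, 4914 with 5 libraries, 625 without replicate 1 and 5 without replicate 3. Treg against Ctrl gave 23, then 55 with DESeq2, 42 without the filter, 5 without the block, 118 with 5 libraries and 0 to 68 with 1 replicate left out. In the same order, Treg + aIL-10R against Ctrl gave 68, then 152, 121, 23, 320 and 1 to 252. Treg + aIFNγ against Treg gave 29, then 87, 51, 7, 177 and 0 to 67, and both antibodies against Treg 31, then 108, 57, 6, 309 and 0 to 118. Both antibodies against Ctrl gave 0, and 1 with DESeq2 or 5 libraries. For the cytokines in ISC-like, TA-like and enterocyte-like cells the counts of 2100, 3658 and 3197 became 559, 770 and 855 without the block, 932, 1880 and 1084 without replicate 1 and 1271, 2141 and 1487 without replicate 3. The difference between classes gave 2073, then 283, 446 and 918. For Treg in these classes, 30, 50 and 6 became 174, 370 and 156 without the filter, 6, 10 and 1 without the block, and 0 to 71, 2 to 108 and 0 to 28 with 1 replicate left out, and 6 became 13 with DESeq2. Depth limits Ereg and Egf, which rest on 14 to 126 and 49 to 80 UMIs in a group.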
